A study of Mus musculus with 4 samples.

Results

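The spindle of the mouse oocyte forms without centrioles, and 10 genes of its poles are described here in oocytes matured with or without tubastatin A (TubA), an inhibitor of the deacetylase HDAC6. The genes were taken by symbol from a list of pole components. They are *Pcnt*, *Cep192* and *Cdk5rap2* (pericentriolar scaffold), *Nedd1*, *Tubg1*, *Tubg2*, *Tubgcp2* and *Tubgcp3* (γ-tubulin ring and its anchor), and *Numa1* and *Tacc3* (pole and spindle organisers). All 10 of the 10 were found among the 21957 genes of the table. Levels are FPKM, fragments scaled to transcript length and to the mapped fragments of a library, so genes of different length can be compared.

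Oocytes came from female B6D2F1 hybrid mice (C57BL/6 x DBA) aged 6 to 8 weeks. The females had been injected with pregnant mare serum gonadotropin, and cumulus cells were removed before culture. The GV group was taken with its germinal vesicle at 0 h, and was therefore neither cultured nor exposed to TubA. The MII group was cultured for 12 h without TubA, and the TubA10 and TubA20 groups for 12 h with 10 or 20 μM TubA. A treatment field of the labels gives 20 μM for TubA10 and 11 μM for TubA20, against the sample titles and the methods of the study, and the titles are followed here. TubA was dissolved in DMSO, and whether the MII oocytes received DMSO is not given in the sources used here. MII oocytes carried a first polar body, and the study describes TubA oocytes as mostly without one. Where its text gives a dose for the failure to progress, that dose is 20 μM. The stage of the 10 μM pool is not stated there. Treatment and meiotic stage therefore cannot be told apart.

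Each group was 1 library from a pool of 100 oocytes. No difference below has a replicate check, and no p-value is given. The 4 libraries had 14434 to 15440 genes above 0 and FPKM sums of 568331 to 627340. The total reads that the study reports for each library were not used here. By those totals TubA20 lies above GV, while the estimate that follows puts it below. A depth estimated from the smallest FPKM steps put TubA20 at 0.896, MII at 1.61 and TubA10 at 1.7 times GV, so values of low genes are least precise in TubA20 and GV. All 10 oocyte markers were at 1 FPKM or more, with a summed level of 1.03e+04 FPKM in GV to 1.33e+04 in TubA20. They did not move together, since *Oosp1* (2.7e+03 to 6.21e+03 FPKM) and *Gdf9* (1.77e+03 to 3.82e+03 FPKM) were higher in TubA20 than in GV, while *Zp3* (2.45e+03 to 973 FPKM) and *Padi6* (833 to 350 FPKM) were lower. The 12 cumulus and granulosa markers summed to 21.8 to 25.5 FPKM, and 6 of them reached 1 FPKM in a library. Within that list *Inha* had 7.5 FPKM in GV and 0.239 to 0.314 FPKM elsewhere, whereas *Cyp19a1* had 6.14 FPKM in GV but 8.6 in MII and 10.3 in TubA20, and *Tnfaip6* had 0, 0.338 and 1.57 FPKM in these libraries. *Amh* did not exceed 0.127 FPKM and *Foxl2* was at 0 in all 4. The 6 blood markers summed to at most 0.0347 FPKM, and 4 of them were at 0 in all libraries. The part of other cells in the changes below was not tested.

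In most animal cells the poles of the spindle are built around a centriole pair wrapped in pericentriolar material. Mouse oocytes lose their centrioles and instead nucleate microtubules from many acentriolar organising centres, which hold pericentrin, CEP192 and γ-tubulin and which gather and fragment into the poles of a barrel-shaped spindle. γ-tubulin acts within a ring complex that templates the microtubule, NuMA works with dynein to bundle the minus ends, and TACC3 supports both kinetochore fibres and a phase-like domain around the oocyte spindle. Oocytes transcribe little after the germinal vesicle stage, so stored mRNAs are used, degraded or given longer poly(A) tails. Because the RNA was selected with oligo(dT), more mRNA and a longer tail cannot be told apart in these values. In pooled libraries scaled to their own total, fewer contributing cells and less RNA per cell cannot be told apart either.

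*Tacc3* stood far above the other members in every library. It made up 79.6% of the summed FPKM of the 10 genes in GV, 47% in MII, 54.9% in TubA10 and 39.9% in TubA20. The other 9 genes together summed to 220 FPKM in GV, 368 in MII, 313 in TubA10 and 401 in TubA20, so the sum without *Tacc3* was lowest in GV and highest in TubA20. *Tubgcp3*, a core subunit of the ring, was the lowest member in every library and stayed below 1 FPKM. From highest to lowest the order in GV was *Tacc3*, *Tubg2*, *Pcnt*, *Nedd1*, *Tubg1*, *Numa1*, *Cdk5rap2*, *Tubgcp2*, *Cep192* and *Tubgcp3*. MII and TubA10 had the same order, and TubA20 differed only in that *Nedd1* (69.7 FPKM) lay above *Pcnt* (60.2 FPKM). Whether neighbours in this order differ beyond the spread between oocyte pools was not tested, since there is 1 library each.

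**Figure D1:**
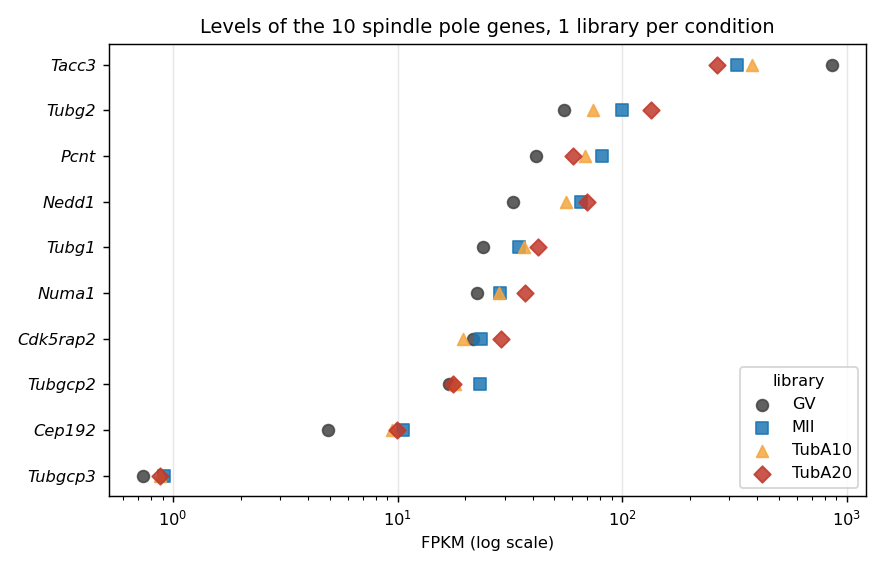
FPKM of the 10 spindle pole genes on a log axis, with a point for each of the 4 libraries. *Tacc3* (266 to 861 FPKM) lies above all other members and *Tubgcp3* (0.737 to 0.907 FPKM) below them in every library.

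Over maturation without the drug, 9 of the 10 genes had a higher value in MII than in GV, and *Tacc3* alone had a lower one. *Tacc3* was also the only member past 2-fold on the scale used for all changes, log2 of the ratio of FPKM + 1. Thus 0 members were higher and 1 was lower by that rule, where 3.05% of all 21957 genes were higher and 8.34% lower. Among 7685 expressed genes, meaning that either library reached 5 FPKM, 8.26% were higher and 20.8% lower. A log2 change above 0, of any size, was found for 53.4% of them, beside 9 of the 10 members. The members' median log2 change was 0.48, against 0.11 for those 7685 genes, whose quartiles were -0.80 and 0.67, and 0.00 for all genes. *Cep192* and *Nedd1* (both 0.98), *Pcnt* (0.95) and *Tubg2* (0.85) lay just short of the 2-fold line. These 4 are sensitive to scaling, since *Pcnt*, *Cep192* and *Nedd1* pass it when the libraries are brought to equal FPKM sums, as does *Tubg2* when they are brought to equal *Gapdh*. Over the 9193 genes that reached 1 FPKM in all 4 libraries the median change was 0.13. With that median set to 0, the member *Cdk5rap2* turned to -0.03 and 8 members were above GV. Scaling also moved the balance over all genes, as higher genes were 26.7% of those past 2-fold with the deposited values, 13.9% with the median set to 0 and 51.2% with equal *Gapdh*.

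At the lower dose of TubA no member passed 2-fold against MII in either direction. Few genes did, as 0.515% of all genes were higher and 0.128% lower, so this count does not set the members apart. The members' log2 changes ran from -0.42 for *Tubg2* to 0.22 for *Tacc3*, and 8 of the 10 were below 0. Their median was -0.18, against 0.01 for the 7292 expressed genes, whose quartiles were -0.23 and 0.30. Of these expressed genes 50.6% were above 0, and the members ranked among them from percentile 8.52 (*Tubg2*) to 68.3 (*Tacc3*). With equal *Gapdh*, 7 members were below 0, as *Numa1* turned from -0.01 to 0.03.

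At the higher dose the members split evenly around MII. No member passed 2-fold, where 0.328% of all genes were higher and 2.44% lower, and 0.542% and 6.09% of the 7197 expressed genes. *Tubg2* (0.42), *Numa1* (0.36), *Cdk5rap2* (0.29), *Tubg1* (0.28) and *Nedd1* (0.09) had higher values than MII. *Pcnt* (-0.42), *Tubgcp2* (-0.37), *Tacc3* (-0.29), *Cep192* (-0.08) and *Tubgcp3* (-0.03) had lower ones. The value of *Nedd1* turned to -0.05 with equal FPKM sums, to -0.03 with equal upper quartiles and to -0.07 with equal *Gapdh*. The median of the members was 0.03, against 0.06 for the expressed genes, of which 55.6% were above 0.

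Set directly against TubA10, TubA20 had higher values for 6 members and lower values for 3, while *Tubgcp3* was level (0.00). With equal FPKM sums, equal upper quartiles or equal *Gapdh*, 5 members were above 0 and 5 below. None passed 2-fold, where 0.66% of all genes were higher and 5.52% lower. The step between the doses was largest for *Tubg2* (0.84), *Cdk5rap2* (0.55) and *Tacc3* (-0.51). *Tubg2* ranked at percentile 95.6 of the 7374 expressed genes of this comparison, whose quartiles were -0.55 and 0.45. Of those expressed genes 55.5% were above 0. The 2 dose comparisons share the MII library. For 5 members the values against MII had opposite signs at the 2 doses, namely *Cdk5rap2*, *Nedd1*, *Tubg2*, *Numa1* and *Tacc3*, and for the other 5 the same sign. How many of all genes had opposite signs was not counted.

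**Figure D2:**
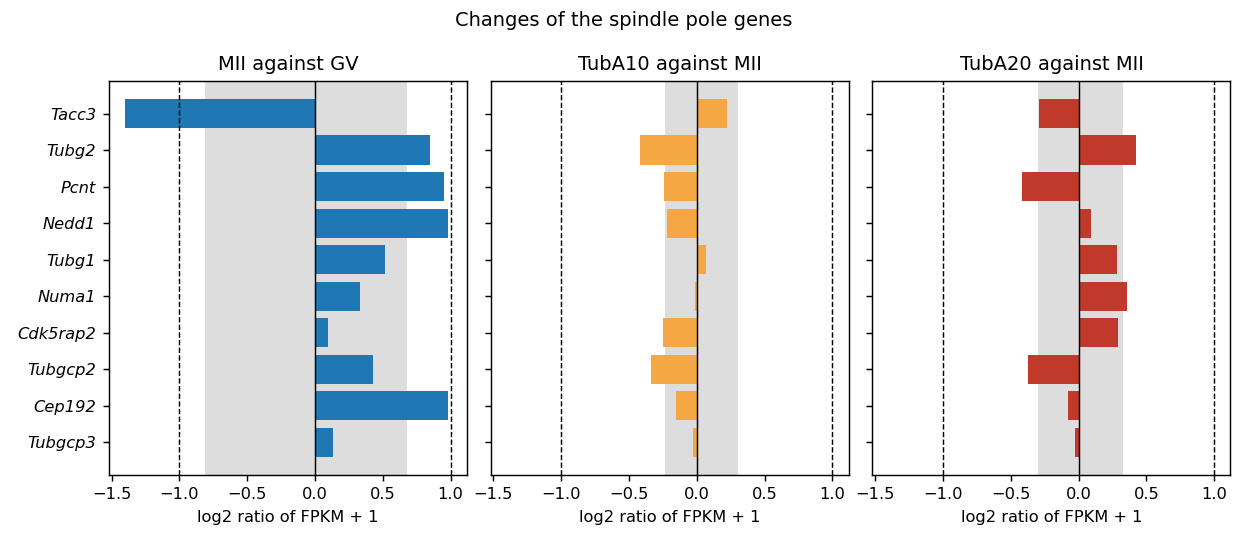
Log2 change of FPKM + 1 of each of the 10 members in MII against GV, TubA10 against MII and TubA20 against MII. Each member has a bar, the grey band is the quartile range of the expressed genes (5 FPKM or more in either library), and dashed lines mark 2-fold. *Tacc3* is past the lower line in MII against GV, at -1.40. Its changes against GV in TubA10 (-1.18) and TubA20 (-1.69) are not drawn.

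The study itself set the treated oocytes against GV, and for some genes also against MII. The 2 comparisons of treated oocytes with GV share the GV library with that of MII. In TubA10, 0 members were over 2-fold higher than in GV and 1, *Tacc3*, was lower, where 0.742% of all genes were higher and 5.6% lower. In TubA20, *Tubg2* and *Nedd1* were over 2-fold higher and *Tacc3* was lower, where 7.61% of all genes were higher and 11.7% lower, and 20.2% and 26.8% of the 7778 expressed genes. The call on *Nedd1* is lost, at 0.85, when the median change is set to 0. The members' median change was 0.38 in TubA10 and 0.61 in TubA20, beside 0.48 in MII. Of the genes past 2-fold over the whole table, 11.7% were higher in TubA10 with deposited values and 4.45% to 46.4% under other scalings. In TubA20 the share was 39.4%, and 23% to 44.2% under other scalings.

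*Pcnt* encodes pericentrin, the large coiled-coil scaffold on which the oocyte's organising centres assemble. Its level was 41.4 FPKM in GV, 81 in MII, 68.6 in TubA10 and 60.2 in TubA20. MII had the highest value, both TubA libraries lay between MII and GV, and the TubA20 value was 0.743 times that of MII. The gene lies at chr10:76351263-76442786 on the minus strand of GRCm38.

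*Cep192* encodes the scaffold that recruits and activates Aurora A and PLK1 at the poles. Its level in GV was 4.88 FPKM, with 10.6 FPKM in MII, 9.48 in TubA10 and 9.97 in TubA20. GV stood alone at the low end, and the 3 cultured libraries lay close together. The ratio of MII to GV was 2.17 on plain FPKM, while the log2 change of 0.98 on FPKM + 1 stays just below the line because the added 1 weighs on a low value. With a pseudocount of 0.1 FPKM its change was 1.10.

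*Cdk5rap2*, which carries a motif that binds and activates the γ-tubulin ring, was the flattest of the scaffold genes over maturation. It had 21.7 FPKM in GV, 23.5 in MII, 19.5 in TubA10 and 29 in TubA20. The lowest and the highest value were thus those of the 2 doses, 1.48-fold apart. Because *Pcnt* moved more between GV and MII, the ratio of *Pcnt* to *Cdk5rap2* FPKM was 1.9 in GV, 3.45 in MII, 3.52 in TubA10 and 2.08 in TubA20. The gene spans chr4:70216856-70410443 on the minus strand.

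*Tubg1* and *Tubg2* both encode γ-tubulin. In the mouse *Tubg1* is the form used in dividing cells in general, and *Tubg2* is known from brain and from the oocyte and early embryo. *Tubg2* mRNA was the more abundant one in all 4 libraries, with 55 FPKM in GV, 99.9 in MII, 74.5 in TubA10 and 134 in TubA20. *Tubg1* had 24 FPKM in GV, 34.8 in MII, 36.7 in TubA10 and 42.4 in TubA20. Both were lowest in GV and highest in TubA20, and between MII and TubA10 their values lay in opposite directions. *Tubg2* made up 69.6% of the summed γ-tubulin FPKM in GV, 74.2% in MII, 67% in TubA10 and 76% in TubA20. The sum of both was 79 FPKM in GV, 135 in MII, 111 in TubA10 and 177 in TubA20, with the MII value between those of the 2 doses. The ratio of *Tubg2* to *Tubg1*, which no scaling of a library can change, was 2.29, 2.87, 2.03 and 3.17 in the same order.

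**Figure D3:**
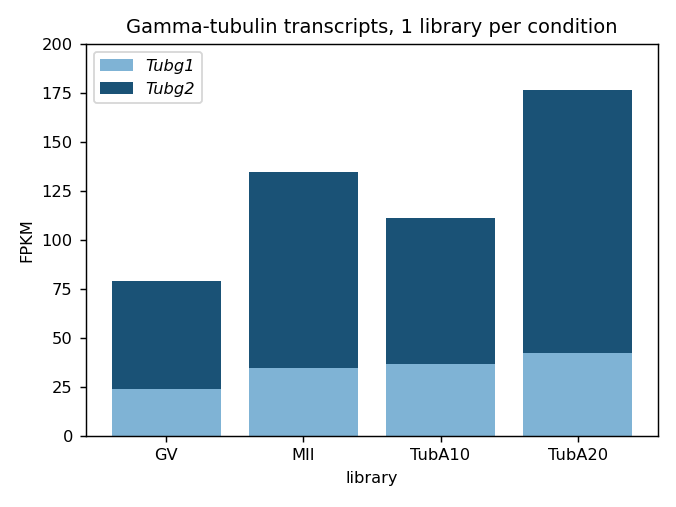
FPKM of *Tubg1* and *Tubg2* in each of the 4 libraries, as stacked bars with *Tubg2* on top of *Tubg1*. The top of a bar is thus the sum of both genes. *Tubg2* is the taller part in every library, at 55 to 134 FPKM beside 24 to 42.4 FPKM for *Tubg1*.

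Both γ-tubulin genes lie on the plus strand of the same chromosome, *Tubg1* at chr11:101119938-101126419 and *Tubg2* at chr11:101155907-101161787. The gap between them is 29487 bases and holds 1 annotated gene, *Gm27626*. Their coding sequences of 1356 bases each are identical at 1265 positions (93.3%), with a longest shared run of 164 bases. That run matters for the levels, since a sequenced read of 100 bases that falls inside it cannot by itself be assigned to one gene. The study sequenced fragments from both ends, so a paired read outside the run may still tell the genes apart. The stretch around it, coding positions 620 to 823, is shown with the 5 differing bases in capitals.
Tubg1: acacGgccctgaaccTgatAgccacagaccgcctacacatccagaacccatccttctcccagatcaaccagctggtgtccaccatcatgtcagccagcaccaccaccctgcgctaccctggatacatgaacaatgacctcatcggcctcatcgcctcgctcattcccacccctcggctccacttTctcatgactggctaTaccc
Tubg2: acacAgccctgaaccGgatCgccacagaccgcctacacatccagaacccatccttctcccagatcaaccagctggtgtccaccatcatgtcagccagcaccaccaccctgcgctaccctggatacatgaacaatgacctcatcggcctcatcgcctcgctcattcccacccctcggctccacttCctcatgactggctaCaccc
Over the whole transcripts, 70 stretches of 100 bases occur in both genes, which is 4.11% of those of *Tubg1* and 4.23% of those of *Tubg2*. The remaining stretches tell the genes apart, and how the deposited values divided the shared ones is not given in the sources used here. Among the other members, *Nedd1* shared 1.37% of its stretches with *Gm49783* and *Pcnt* 0.195% with *AC141477.1*, which overlap them on the same strand, and the remaining 6 shared none.

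*Nedd1* encodes the adaptor that brings the γ-tubulin ring to the poles and to spindle microtubules. Its level was 32.8 FPKM in GV, 65.6 in MII, 56.4 in TubA10 and 69.7 in TubA20. As for *Cep192*, GV was well below the 3 cultured libraries, and the profiles of these 2 genes over the 4 libraries were the closest of any member pair, with a distance of 0.17 between the centred log2 values. The ratio of *Nedd1* to *Tubg1* FPKM was 1.37 in GV, 1.89 in MII, 1.54 in TubA10 and 1.64 in TubA20. *Nedd1* lies at chr10:92684746-92722420 on the minus strand.

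*Tubgcp2* and *Tubgcp3* encode the paired subunits that together with γ-tubulin form the small complex from which rings are made. *Tubgcp2* had 16.9 FPKM in GV, 23.2 in MII, 18.1 in TubA10 and 17.7 in TubA20. MII was the highest, and both TubA libraries lay nearer to GV than to MII. *Tubgcp3* had 0.737 FPKM in GV, 0.907 in MII, 0.872 in TubA10 and 0.873 in TubA20, a 1.23-fold range. The 2 partners therefore differed 20.3-fold to 25.6-fold in FPKM within a library. *Tubgcp3* ranked at percentiles 29.4 to 33.9 of the genes above 0, and at this level differences of its size rest on few fragments. The genes lie at chr7:139995955-140036669 and chr8:12614277-12672248, both on the minus strand.

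*Numa1* encodes NuMA, which gathers microtubule minus ends with dynein. GV had 22.5 FPKM, MII 28.5, TubA10 28.3 and TubA20 36.8. MII and TubA10 were almost equal, and TubA20 was 1.29 times MII. Its profile was nearest to that of *Tubg1*, at a distance of 0.20. The gene lies at chr7:101934111-102014964 on the plus strand.

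*Tacc3* encodes the Aurora A substrate that binds ch-TOG and clathrin on spindle microtubules. Its level was 861 FPKM in GV, 326 in MII, 380 in TubA10 and 266 in TubA20, at percentiles 99.3, 98.1, 98.3 and 96.9 of the genes above 0. It fell past 2-fold in all 3 cultured libraries, to 0.379, 0.442 and 0.309 times the GV level. The order of the cultured libraries was TubA10, MII, TubA20, the reverse of the order seen for *Tubg2*. The percentile of its change among expressed genes was 13.2 in MII, 10.9 in TubA10 and 16.8 in TubA20. With equal *Gapdh* the TubA10 change was -0.91 and no longer past 2-fold. The gene lies at chr5:33658128-33678995 on the plus strand.

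The genes whose profile was most like that of *Tacc3*, out of 7139 with a mean of at least 5 FPKM and over 4 libraries, were *Grpel1*, *Cox5b* and *Wdr73*. *Grpel1*, a cofactor of mitochondrial protein import, had 28.1 FPKM in GV, 9.7 in MII, 11.6 in TubA10 and 7.99 in TubA20, at a distance of 0.037. *Cox5b*, a subunit of cytochrome c oxidase, had 337, 133, 160 and 106 FPKM in the same order (0.079). *Wdr73* had 16.1, 5.39, 6.63 and 4.66 FPKM (0.087).

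The rest of the ring and the augmin complex, which recruits the ring to existing microtubules, moved in both directions. Of 14 further genes, 4 rose past 2-fold and 2 fell in MII against GV, beside 3.05% and 8.34% of all genes. Of the expressed genes, 8.26% rose and 20.8% fell. The median log2 change was 0.09, and -0.05 with the scaling that sets the median change to 0. *Haus6* (4.53 to 13.6 FPKM) and *Mzt1*, a small ring subunit (13.8 to 32.4 FPKM), rose the most. *Haus5* (1.13) and *Haus4* (1.09) are named after their values were seen, to complete the count. *Mzt2* fell from 54.9 to 11.8 FPKM and *Haus7* from 32.4 to 14.9 FPKM, so paired small subunits and subunits of one complex lay on both sides. In TubA20 against MII, 0 rose and 2 augmin genes fell, beside 0.328% and 2.44% of all genes and 0.542% and 6.09% of the expressed ones. The 2 that fell were *Haus1*, from 78.4 to 31.8 FPKM, and *Haus7*, from 14.9 to 6.07 FPKM. The median of the list was -0.10. The highest log2 changes there were those of *Tubgcp4* (0.73) and *Nme7* (0.53), short of 2-fold. In TubA10 against MII none of the 14 passed 2-fold, beside 0.515% and 0.128% of all genes, and the median was -0.07.

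Of 22 genes of centriole duplication and of the pericentriolar material, 5 rose past 2-fold in MII against GV and 1 fell, beside 3.05% and 8.34% of all genes and 8.26% and 20.8% of the expressed ones. The count of rises was 3 with the median change at 0 and 7 with a pseudocount of 0.1 FPKM. The median of the list was 0.45. *Cep170* (2.77 to 8.49 FPKM) and *Plk4*, the kinase that starts centriole duplication and also acts in acentriolar spindles (85.7 to 200 FPKM), rose the most. *Pcm1* (1.22), *Nin* (1.13) and *Akap9* (1.04), all of pericentriolar proteins, are named after their values were seen. *Poc1a* fell from 115 to 43 FPKM, and *Cetn3* had the next lowest log2 change, -0.36. Against MII, TubA10 had a median of -0.25 and TubA20 of 0.02, with 0 of 22 past 2-fold in each. Of all genes, 0.515% were higher and 0.128% lower in TubA10, and 0.328% and 2.44% in TubA20. *Cetn2*, a centrin, came nearest in TubA20, from 99.8 to 49.4 FPKM, which is just short of 2-fold on FPKM + 1. The count of falls there was 2 with a pseudocount of 0.1 FPKM and 1 with the median change at 0. *Nin* had -0.46 there, while *Poc1a* (0.68) and *Poc5* (0.52) had the highest changes.

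Among 15 partners of NuMA and TACC3, 1 rose past 2-fold in MII against GV and 0 fell, with a median of 0.42. Of all genes 3.05% rose and 8.34% fell, and of the expressed ones 8.26% and 20.8%. The 1 that rose was *Epb41*, for the membrane skeleton protein 4.1 that binds NuMA (29.3 to 61.9 FPKM). With the median change at 0 this call was lost and 0 rose, and with equal *Gapdh* 5 did. *Gnai1*, for a G protein subunit of the cortical NuMA complex, followed at 0.99. *Aurka*, for the kinase that phosphorylates TACC3, had the lowest change, -0.78, followed by *Dctn1* of dynactin at -0.56. In TubA20 against MII, 0 of 15 passed 2-fold (median 0.08), beside 0.328% and 2.44% of all genes. *Gnai2* (0.52) and *Rae1* (0.51) were at the top and *Gpsm2* (-0.31) and *Ndel1* (-0.26) at the bottom. In TubA10 against MII, 0 of 15 passed, beside 0.515% and 0.128% of all genes, with a median of -0.07.

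**Figure D4:**
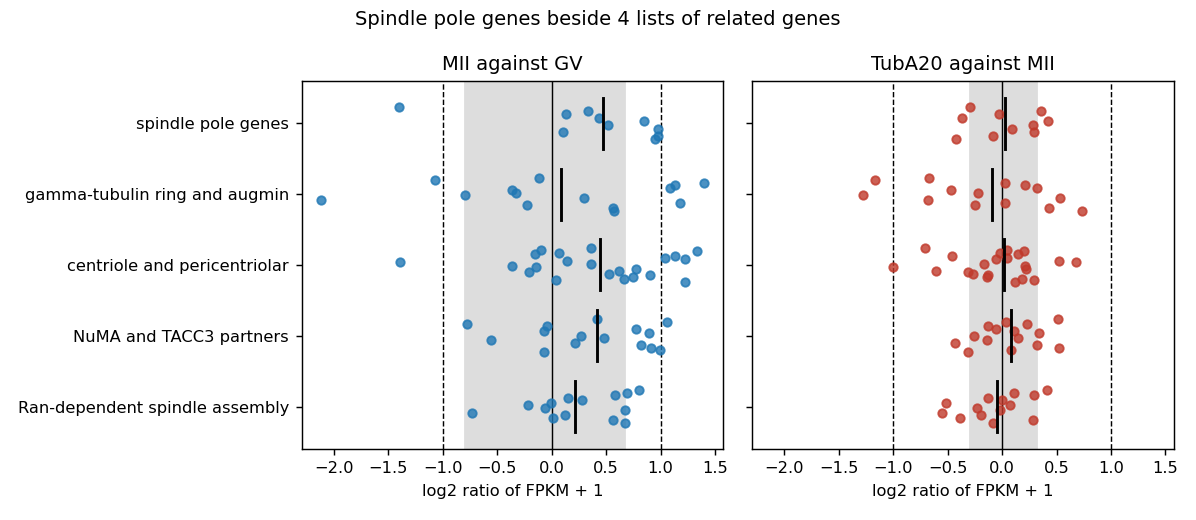
Log2 changes of FPKM + 1 of the members and of the 4 lists of related genes, with a point per gene, a black tick for the list's median and dashed lines at 2-fold. In MII against GV the medians of the members (0.48) and of the centriole and pericentriolar genes (0.45) lie above that of the ring and augmin genes (0.09).

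The 3′ ends of the members were compared because the tail of an oocyte mRNA is set there. Longer tails need a polyadenylation signal, AATAAA or ATTAAA, and in maturing oocytes often a cytoplasmic polyadenylation element, here TTTTAT or TTTTAAT. Both were searched on the transcript strand in the last 100 bases of the 3′ UTR, in the principal transcript of the annotation (GENCODE vM21, GRCm38). Of the members, 9 had a UTR of that length, and *Tubgcp2*, with 35 bases, did not. All 9 held a signal, against 78.8% of 19152 genes and 82% of the 7361 among them that reached 5 FPKM in a library. The polyadenylation element was in 2 of the 9, *Pcnt* and *Tubgcp3*, against 17.9% and 21.3%. The ends of *Pcnt*, with both motifs, of *Tacc3*, which fell over maturation, and of both γ-tubulin genes show the range, with motifs in capitals.
Pcnt: TTTTATtggcaaaacaAATAAAactatgtc
Tacc3: AATAAAgacagctctgtcatctggcctcta
Tubg1: atctttAATAAAgcactggatgtaaaccaa
Tubg2: tctAATAAATAAAgcgtgatgatgcattga
In *Pcnt* the element starts 16 bases before the signal, and the window ends 5 bases before the transcript does. The window of *Tacc3* ends 8 bases before the transcript end, and those of *Tubg1* and *Tubg2* at it. In *Tubg2* the capitals cover 2 overlapping copies of the signal. The 2 genes with an element in the window had log2 changes of 0.95 (*Pcnt*) and 0.13 (*Tubgcp3*) in MII against GV, and *Nedd1* (0.98), *Cep192* (0.98) and *Tubg2* (0.85) had none there. Over the whole 3′ UTR, 5 members held an element, *Nedd1* and *Cep192* among them, while *Tubg2* held 0. A match in these letters is a description of the sequence only, and so is its absence.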

How the data were processed

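The authors deposited 1 table of FPKM values with a column for each of 4 pooled libraries. Per the submitters' processing notes and the methods of the study, reads of 100 bases were processed with STAR 2.5.0, Cufflinks and Cuffdiff 2.2.1 on mm10 as first-strand libraries. These values are relative to the length of a transcript and to the fragments mapped in its library, so they carry no total amount of RNA. The labels name TRIzol and a TruSeq stranded mRNA kit, and the methods PicoPure and oligo(dT) beads. A UCSC gene model is named in the methods, but the table uses versioned Ensembl identifiers. Those of *Pcnt*, *Cep192* and *Nedd1* are older than in GENCODE vM21, from which symbols, positions and transcripts (GRCm38) were joined by identifier, so the deposited lengths may differ. Of 21959 entries 165 had no symbol and were kept, and entries sharing a symbol were added up (21957 genes). There were 0 columns without a sample.

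Changes are log2 of the ratio of FPKM + 1, with a pseudocount of 1 FPKM and no filter. This understates the change of low genes. Higher and lower mean past 2-fold. All 10 members are named. Of 4 lists of related genes, the 2 largest rises and falls in MII against GV and TubA20 against MII among genes with at least 5 FPKM are named, and for likeness the 3 genes nearest to the member with the widest range. The members and lists were chosen with earlier results of these data known. Alternatives were a pseudocount of 0.1 or 0.01 FPKM, a filter at 1 or at 5 FPKM, 4 scalings, a 1.5-fold threshold, the highest entry for a shared symbol and another transcript choice. Scripts were tested on simulated data. Python 3.11.15, numpy 2.4.6, pandas 2.3.3 and matplotlib 3.10.9 were used. The network and pathway supplements of the study were not used. Position and sequence of *Cep192* are not reported here.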

Additional observations from a re-analysis of the deposited data

Results flagged for a closer look

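For 5 members the change against MII had one sign in TubA10 and the other in TubA20. With 1 library in each group the difference between the doses was not tested, and both comparisons share MII. The share of all genes with opposite signs was not counted, so the 5 members have no background to be read against. The log2 change was higher in TubA20 than in TubA10 by 0.84 for *Tubg2* (-0.42 and 0.42), by 0.55 for *Cdk5rap2* (-0.25 and 0.29), by 0.37 for *Numa1* (-0.01 and 0.36) and by 0.30 for *Nedd1* (-0.22 and 0.09). For *Tacc3* it was lower, at -0.51 (0.22 and -0.29). The *Nedd1* value in TubA20 and the *Numa1* value in TubA10 change sign under another scaling.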

How the results depend on the processing

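No paired analysis was possible because each group has 1 library, and for the same reason no library could be left out. Of 10 alternatives, 9 change the values of single members, and 528 such values were recomputed at the 2-fold threshold. Of these, 15 turned sign and 19 crossed the threshold, 0 moved by over 1.5 times, and 0 values past 2-fold turned sign. The count of members higher in MII than in GV, 0 as reported, became 1 with a pseudocount of 0.1 FPKM and 2 with 0.01, 3 with equal FPKM sums or equal upper quartiles, and 4 with equal *Gapdh* or a 1.5-fold threshold. In TubA20 against GV, the 2 higher members became 5 with a 1.5-fold threshold and 1 once the median change was 0. In TubA10 against GV, 0 higher became 2 with equal *Gapdh* and 4 with a 1.5-fold threshold, and 1 lower became 0 with equal *Gapdh*. In TubA20 against TubA10, 0 higher became 1 with a 1.5-fold threshold. With equal *Gapdh* the median change of genes with at least 1 FPKM everywhere was 0.32 in MII against GV and -0.12 in TubA20 against MII. Of 696 recomputed counts and medians of the 4 lists, 60 moved. The number of members with a polyadenylation element, 2, was the same for the transcript with the longest 3′ UTR. Of the 10 members, 10 kept their place from GV in MII and in TubA10, and 8 in TubA20. The cause of these moves was not tested beyond what each setting changes by construction. Depth was only estimated here, from the FPKM values, which limits *Tubgcp3* most.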

Other observations

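Spindle assembly in the oocyte also relies on Ran, whose gradient around chromatin frees pole factors from importins. Of 14 genes of that pathway, 0 passed 2-fold in MII against GV (median log2 change 0.21), where 3.05% of all genes were higher and 8.34% lower. Of the expressed genes, 8.26% were higher and 20.8% lower. In TubA20 against MII 0 passed it (median -0.05), where 0.328% of all genes were higher and 2.44% lower. In MII, *Kif2a*, for a microtubule depolymerase at the poles, went from 25.2 to 44.6 FPKM (0.80) and *Kif11*, for the motor that pushes poles apart, from 14.4 to 23.8 FPKM (0.69), while *Kpna2* had -0.73 and *Nusap1* -0.22. In TubA20 against MII the ends were *Kif2a* (0.41), *Kifc1* (0.29), *Kpna2* (-0.55) and *Hmmr* (-0.51). In TubA10 against MII, 0.515% of all genes were over 2-fold higher and 0.128% lower, and 1.29% and 0.206% of the expressed ones. Of the 14, 1 was past 2-fold there, *Kpna2*, for the importin α that binds TPX2. It had 481 FPKM in GV, 290 in MII, 682 in TubA10 and 198 in TubA20, so TubA10 was highest and TubA20 lowest. Like *Tacc3*, it was higher than MII in TubA10 and lower in TubA20. Its change between the doses was -1.78, against -0.51 for *Tacc3*.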
